A study of Mus musculus with 4 samples.

Results

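The cathepsins described here are 10 protease genes, Ctso, Ctsa, Ctsb, Ctsd, Ctsf, Ctsh, Ctsk, Ctsl, Ctss and Ctsz, taken by name from a table of 16846 genes measured in 8 libraries. Ctso was selected on its knockdown values, as 1 of 15 genes that DESeq2 called there, and the other 9 as its relatives by name. The knockdown values below are therefore a description and carry no test. All 10 genes were in the table, and 8 of them were among the 12115 genes that passed the filter on low counts; Ctsf and Ctss did not. All 4 samples give HT22 as their cell line, an immortalised line derived from mouse hippocampal neurons, although the titles of 3 of them write HT23 (sh-Ntoco), HT24 (Vector) and HT25 (Lv-Ntoco). The cell line field was followed, and all libraries came from a stranded mRNA kit. The 4 groups were cells with a control short hairpin RNA (sh-Ctrl), cells with a hairpin against the long noncoding RNA Ntoco (sh-Ntoco, the knockdown), cells with an empty vector (Vector) and cells given Ntoco (Lv-Ntoco, the overexpression). No other allele, drug or treatment is named in the labels, nor whether a group was 1 clone or a pool. Each group had 2 numbered libraries in the table and 1 labelled sample. The table's columns write AK for the target and pcDNA for the vector, so they were matched to the labels by role (hairpin, control, vector, overexpression) and not by name. Nothing says that the libraries came from separate cultures, so any p describes the spread between 2 libraries, which may be technical.

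Cathepsins are made as inactive proenzymes, tagged with mannose 6-phosphate on their way through the Golgi, and activated by cleavage in the acid lumen of endosomes and lysosomes. They differ in chemistry: Ctsb, Ctsf, Ctsh, Ctsk, Ctsl, Ctso, Ctss and Ctsz are papain-like cysteine proteases, Ctsd is an aspartic protease, and Ctsa is a serine carboxypeptidase that also stabilises the lysosomal enzymes neuraminidase and beta-galactosidase. In neurons they carry out much of the turnover of protein delivered by autophagy, and their leak from damaged lysosomes is a known route to cell death. Ctss is best known from microglia and macrophages, and Ctsk from osteoclasts.

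Promoter sequence is shown first, for the words by which lysosomal, interferon and NF-kB regulated genes are known. RefSeq promoters (GRCm38.p6, from 250 bases before to 50 after a gene's start) were found for 8 of the 10 genes, 9 promoters in all; Ctsb and Ctsh had no entry. Positions count from 0 at the start. The words were searched on both strands. CACGTG is the core of the E-box bound by Tfeb and its relatives, the main activators of lysosomal genes, and lies inside their extended site, the CLEAR element. The core of the interferon-stimulated response element is a repeat of GAAA with any bases in the gap. A site of the NF-kB type was added after the Ctso promoter had been read.

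The 250 bases before the Ctso start, on the plus strand of chr3:81932351-81932600, hold the NF-kB type site at -122, here in capitals. They are shown because that pathway is named in the title of the series.
Ctso: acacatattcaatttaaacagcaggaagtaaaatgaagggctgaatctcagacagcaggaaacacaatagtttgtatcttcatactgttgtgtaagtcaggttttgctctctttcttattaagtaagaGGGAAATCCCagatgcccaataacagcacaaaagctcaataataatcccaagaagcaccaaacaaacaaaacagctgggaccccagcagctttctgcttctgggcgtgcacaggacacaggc

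The word in capitals was present in 31 of 32851 promoters of the table (0.0944%), and among the cathepsins in the Ctso promoter alone of the 9. Because the word was added after that promoter had been read, its presence there was known in advance. Only this exact spelling was searched, so nothing is read from its share or from its absence elsewhere. The interferon word was in 3.44% of all promoters and in those of Ctso and Ctss, shown with the word in capitals (a pair of overlapping matches in Ctso, chr3:81932609-81932638, first base at 15; chr3:95526755-95526784 for Ctss, first base at -21, both on the plus strand).
Ctso: gagccaaGAAACCGAAAGAGAAAgcgggcc
Ctss: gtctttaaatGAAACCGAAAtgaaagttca

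CACGTG was in 7.15% of all promoters and in those of Ctsd, Ctsl and Ctsf and the downstream start of Ctsa, 4 of the 9 cathepsin promoters. The Ctsl promoter entry (64370471 to 64370770) lay inside the annotated Ctsl gene (64361890 to 64370772, minus strand). Its positions count from that internal start, so the word at -236 lies within the gene and not before it. The CLEAR element, searched in a fixed spelling with no mismatch allowed, was in 0.326% of all promoters and in 0 of the 9. Looser spellings of it were not searched, so sites of the CLEAR type are not excluded in these promoters. The stretches below of Ctsd at -98 and of Ctsa at -12 and 5 come close to the fixed spelling without matching it. The stretches are shown with CACGTG in capitals because Ctsd, Ctsl and Ctsa are abundant and Ctsf is not. Ctsz, also abundant, held 0 matches, and Ctsb, the most abundant, had no promoter entry. Ctsd holds a second match at -245, not shown.
Ctsd at -98 (chr7:142387910-142387935, minus strand): gcccgcgtctCACGTGacccgttgag
Ctsl at -236 (chr13:64370741-64370766, minus strand): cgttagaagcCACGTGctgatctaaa
Ctsa at -12 (chr2:164833751-164833776, plus strand): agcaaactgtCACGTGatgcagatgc
Ctsa at 5 (chr2:164833768-164833793, plus strand): tgcagatgctCACGTGaccagagcta
Ctsf at -79 (chr19:4855076-4855101, plus strand): ccccgtggtcCACGTGcctcgcgtaa

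The Ctso promoter held the NF-kB and interferon words and no CACGTG. A match in these letters is a description and no evidence of binding. Ctsf, which holds CACGTG, was not detected beyond 1 count. The share of G and C over the promoter was 45.3% for Ctso and 43.7% for Ctsk, against 67.3% for Ctsd and a median of 52.7% over all promoters.

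The libraries held 18452588 to 19859041 counts. By the median absolute log2 difference over genes, only 2 of the 8 libraries lay nearest to their own partner, and knockdown library 2 and vector library 1 lay nearest to each other. The hairpin's target could not be used to check the labels, since Ntoco itself was not analysed here. Markers of neurons were near absent: the 9 of 13 found in the table summed to 1.44 to 4.55 CPM (counts scaled to a common library size with TMM factors), with Map2, Nefl and Tubb3 at 0 to 2 counts in every library. Markers of fibroblasts and meninges summed to 2800 to 8240 CPM, but members of that list differed. Col1a2 (1040 to 3630 CPM), S100a4 (308 to 2100), Fn1 (610 to 1470) and Col1a1 (209 to 1130) were its largest members. Pdgfrb and Pdgfra had 107 to 256 and 28.3 to 87.2 CPM. Col3a1 had only 2 to 60 counts, Dcn 0 to 1 and Lum 0 in every library.

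The cathepsins ran from among the most expressed genes to barely counted ones. Levels between genes are compared in the authors' FPKM, which scales each count by gene length and library size. Ctsb, an abundant endo- and carboxydipeptidase, was the highest, at 405 to 492 FPKM, the level ranked 114 of all genes in the table. Ctsz, a carboxypeptidase, had 215 to 305 FPKM and Ctsd 204 to 323 FPKM. Ctsz was above Ctsd in 5 of 8 libraries, so that these neighbours could not be ordered. These 3 genes made up 70.2 to 80.3% of the cathepsin FPKM of a library.

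Ctsl, a strong endopeptidase, had 118 to 254 FPKM and lay below Ctsd in 8 of 8 libraries. Ctsa had 59.9 to 128 FPKM and lay below Ctsl in 8 of 8. Ctsk, known for degrading collagen, had 14.1 to 46.3 FPKM and Ctsh, an aminopeptidase, 12.8 to 21.9 FPKM. Ctsk was the higher of these in 6 libraries, and their ranges overlapped. Ctso, a little studied member, was the lowest of the 8 tested genes, at 1.19 to 7.46 FPKM.

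**Figure D1:**
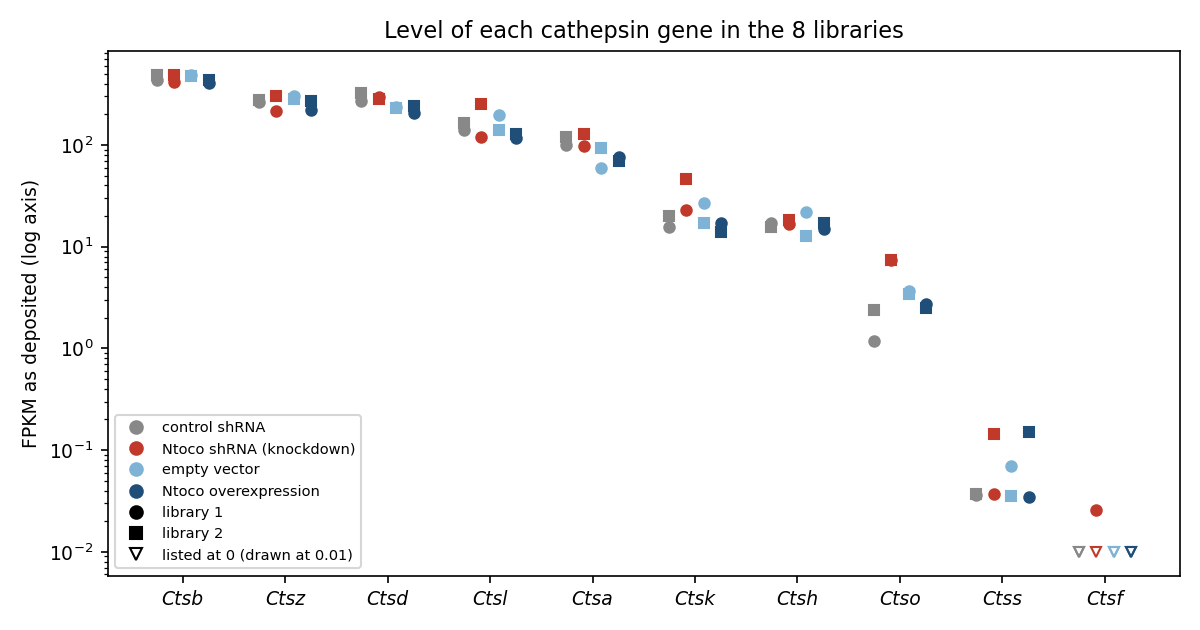
FPKM of the 10 cathepsin genes (log axis) in the 8 libraries, coloured by group, circles for library 1 and squares for library 2, open triangles for libraries listed at 0. Ctsb lies at 405 to 492 FPKM, Ctso at 1.19 to 7.46 with both knockdown libraries on top, and Ctss and Ctsf lie near the bottom.

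Ctss and Ctsf were not detectable as expressed genes at this depth. Ctss had 1 to 4 counts in each library and 15 in all. Ctsf had 1 count in knockdown library 1 and 0 in the other 7 libraries, where a count of 0 allows a level of up to 0.151 to 0.163 CPM (3 counts, counting error only). The markers of microglia and macrophages were low alongside: the pan-leukocyte gene Ptprc was at 0 in every library, Itgam and Aif1 had 0 to 2 counts and Adgre1 0 to 1. Other members of that list were counted: Cd68, a lysosomal membrane protein, had 94 to 278 counts, Cd14 74 to 116, Csf1r 12 to 84, Cx3cr1 13 to 57 and Tmem119 8 to 57. The list's 11 genes of 12 in the table summed to 16.4 to 24.1 CPM. Ctsk lies 17398 bases from Ctss on chromosome 3, and while Ctss had at most 4 counts its neighbour had 412 to 1423. Of 9 osteoclast markers 7 were in the table and summed to 35.5 to 55.3 CPM, of which Nfatc1, not limited to osteoclasts, made up 34.4 to 54.7. The defining Acp5 had 1 to 6 counts and Tnfrsf11a 0 to 1. Of the 12 further cathepsin genes listed for comparison, Ctse, Ctsq and Ctsw were in the table with at most 7 counts in a library, and 9, Ctsc among them, were not analysed here.

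Ctso (Entrez Gene 229445, GRCm38 chromosome 3, 81932601 to 81956725) varied the most of the 8 tested cathepsins (SD of log2 CPM over the 8 libraries 0.85). It had 4.14 and 7.99 CPM in the control shRNA libraries, 25.3 and 24.7 CPM in the knockdown, 13.2 and 12 CPM with the empty vector, and 9.68 and 8.88 CPM with overexpression. Both knockdown libraries were the highest of the 8 and both control shRNA libraries the lowest, and the ranges of the 4 groups did not overlap. The counts behind these values were 79 and 154 in the control and 484 and 501 in the knockdown. The spread within the control shRNA group was wide, with a mean of 6.07 ± 2.73 CPM (SD, n = 2), while the knockdown mean was 25.0 ± 0.434 CPM (SD, n = 2).

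The knockdown log2 ratio of Ctso, the value that led to this list, was 2.04 (SE 0.34). It was 2.59 without control shRNA library 2 and 1.64 without control shRNA library 1. DESeq2 called 0.124% of genes in that comparison and edgeR's quasi-likelihood test 0% (3.12% at an unadjusted p under 0.05). The vector against control shRNA log2 ratio of Ctso was 1.05 (SE 0.34). It uses the same control shRNA libraries, whose low Ctso values entered the selection, so it too is a description with no test. It was 1.60 without control shRNA library 2 and 0.65 without control shRNA library 1.

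In the overexpression comparison, whose libraries are separate from those of the knockdown, Ctso was lower: 9.28 ± 0.567 CPM against 12.6 ± 0.854 CPM (SD, n = 2 each). Both overexpression libraries lay below both vector libraries. The log2 ratio was -0.44 (SE 0.33, 95% interval -1.21 to 0.32), and it did not pass (edgeR adjusted p 0.645). Leaving out any of the 4 libraries gave -0.51 to -0.37.

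**Figure D2:**
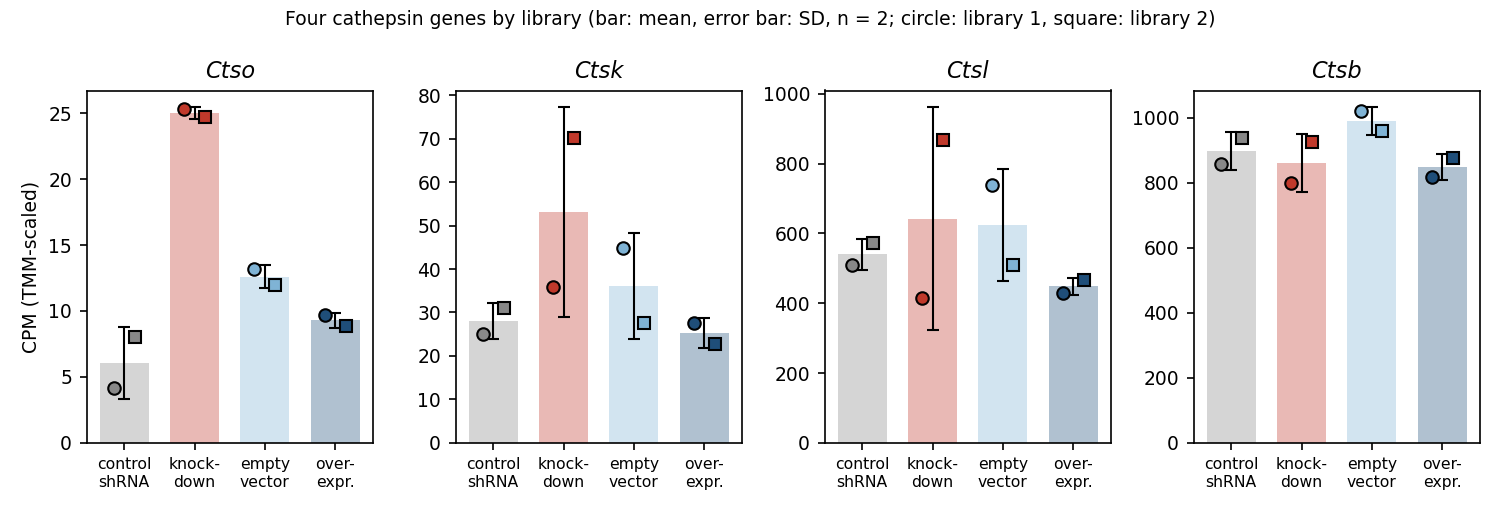
CPM (TMM-scaled, linear axes from 0) of Ctso, Ctsk, Ctsl and Ctsb in each library, with bars for the mean and error bars for the SD (n = 2). Both knockdown libraries stand at about the same height for Ctso (25.3 and 24.7 CPM), whereas for Ctsk and Ctsl knockdown library 2 stands far above library 1.

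Ctsk and Ctsl had another pattern, with high values in single libraries. The span of Ctsk is 95499210 to 95509387 of chromosome 3. Its values were 25.1 and 31.0 CPM in the control shRNA libraries, 35.9 and 70.2 CPM in the knockdown, 44.8 and 27.5 CPM with the vector, and 27.7 and 22.7 CPM with overexpression. Ctsl, on chromosome 13 (64361890 to 64370772), gave 509 and 572 CPM, 416 and 868 CPM, 738 and 511 CPM, and 430 and 466 CPM in the same order. For both genes knockdown library 2 was the highest and vector library 1 the next.

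For Ctsk both knockdown libraries still exceeded both control libraries. Its knockdown log2 ratio was 0.92 (SE 0.37), and 0.36 without knockdown library 2. For Ctsl the knockdown libraries lay on either side of the controls, with a log2 ratio of 0.25 (SE 0.34) that was -0.38 without library 2 and 0.68 without library 1. Over the 8 libraries the log2 CPM of Ctsk and Ctsl had a Pearson r of 0.82, a description of points that share groups and library properties.

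The same libraries differed in other respects. Lcn2, the iron-binding lipocalin of the series title, was added after its values were seen. It reached 907 CPM in knockdown library 2 and 229 in vector library 1, against 14.3 to 65.8 CPM in the other 6. Over the 8 libraries Lcn2 had an r of 0.87 with Ctsl, 0.83 with Ctsk and 0.53 with Ctso, which placed it at rank 180, 220 and 1104 of 12114 genes by likeness. The sum of fibroblast and meningeal markers was lowest in these libraries. It was 2800 CPM in knockdown library 2 and 2910 CPM in vector library 1, against 4400 to 8240 CPM elsewhere. S100a4 was lowest in them (463 and 308 CPM). Fn1 was not, at 754 and 1165 CPM against 610 and 691 CPM with overexpression. The sum of astrocyte markers was also lowest in knockdown library 2 and vector library 1, at 46.8 and 42.4 CPM against 79.7 to 113 CPM. Its members differed: Gja1 and Aldh1l1 were lowest in these libraries. Gfap was highest in them, at 1.23 and 1.18 CPM against 0.515 to 0.727 CPM elsewhere. The part of these differences in the cathepsin values was not tested. All libraries are labelled as the same cell line, so these sums are levels of listed genes and do not count fibroblasts or astrocytes. In bulk RNA, fewer cells that express a gene and less of its RNA per cell cannot be told apart.

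The overexpression comparison of Ctsk and Ctsl also leaned on vector library 1. For Ctsk the log2 ratio was -0.52 (SE 0.37, 95% interval -1.37 to 0.33, edgeR adjusted p 0.631), and -0.12 without vector library 1 and -0.83 without vector library 2. Ctsl had 448 ± 25.4 CPM with overexpression and 625 ± 161 CPM with the vector (SD, n = 2 each), a log2 ratio of -0.48 (SE 0.34, 95% interval -1.27 to 0.31, edgeR adjusted p 0.633). For Ctsl, leaving out vector library 1 gave -0.19 and leaving out library 2 gave -0.72. Neither gene passed.

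Ctsh, which trims residues from the amino end, was flat but for the vector. It had 28.8 and 25.1 CPM in the control shRNA libraries, 27.4 and 29.5 CPM in the knockdown and 25.6 and 28.8 CPM with overexpression. The vector libraries held both its highest and its lowest value, 38.2 and 21.6 CPM. The overexpression log2 ratio was -0.14 (95% interval -0.80 to 0.53), and 0.33 without vector library 1.

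Ctsb was the steadiest cathepsin, followed by Ctsd and Ctsz. Its gene spans 63122462 to 63145923 of chromosome 14, and its values were 857 and 939 CPM in the control shRNA libraries, 799 and 925 CPM in the knockdown, 1020 and 960 CPM with the vector, and 819 and 876 CPM with overexpression. Its highest value was 1.28 times its lowest, and only 2.34% of genes tested varied less over the 8 libraries (SD of log2 CPM 0.12, against a median of 0.33). Both overexpression libraries were below both vector libraries, with a log2 ratio of -0.22 (SE 0.17, 95% interval -0.62 to 0.17, edgeR adjusted p 0.651).

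Ctsz, on chromosome 2 (174427494 to 174439039), gave 387 and 382 CPM in the control shRNA libraries, 303 and 416 CPM in the knockdown, 460 and 412 CPM with the vector, and 326 and 396 CPM with overexpression. It had a Pearson r of 0.91 with Ctsb over the 8 libraries, the highest of the 28 pairs of tested cathepsins. The overexpression libraries again lay below the vector libraries (log2 ratio -0.27, SE 0.21, 95% interval -0.76 to 0.22, edgeR adjusted p 0.654). The ratio was -0.14 without overexpression library 1 and -0.42 without overexpression library 2.

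Ctsd and Ctsa, the members that are not cysteine proteases, were lower with the empty vector than with the control shRNA. Ctsd, on chromosome 7 (142375910 to 142387827), gave 526 and 598 CPM in the control shRNA libraries and 479 and 446 CPM in the vector libraries, with 555 and 515 CPM in the knockdown and 401 and 472 CPM with overexpression. Its vector log2 ratio was -0.28 (SE 0.18, edgeR adjusted p 0.493). Ctsa, on chromosome 2 (164832872 to 164841032), gave 367 and 427 CPM in the control shRNA libraries, 350 and 450 CPM in the knockdown, 231 and 349 CPM with the vector, and 286 and 263 CPM with overexpression. Its vector log2 ratio was -0.45 (SE 0.24, edgeR adjusted p 0.444). Leaving out vector library 1 gave -0.19 for Ctsa and leaving out vector library 2 gave -0.78. Neither passed. Vector library 1, where Ctsl, Ctsh and Ctsk were high, held the lowest Ctsa value, and Ctsa had a negative r with Ctsh of -0.48.

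In the overexpression comparison Ctsd and Ctsa had log2 ratios of -0.09 (95% interval -0.50 to 0.32) and -0.08 (-0.64 to 0.48). Without overexpression library 1 the Ctsd value was 0.03, and without vector library 2 the Ctsa value was 0.25.

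**Figure D3:**
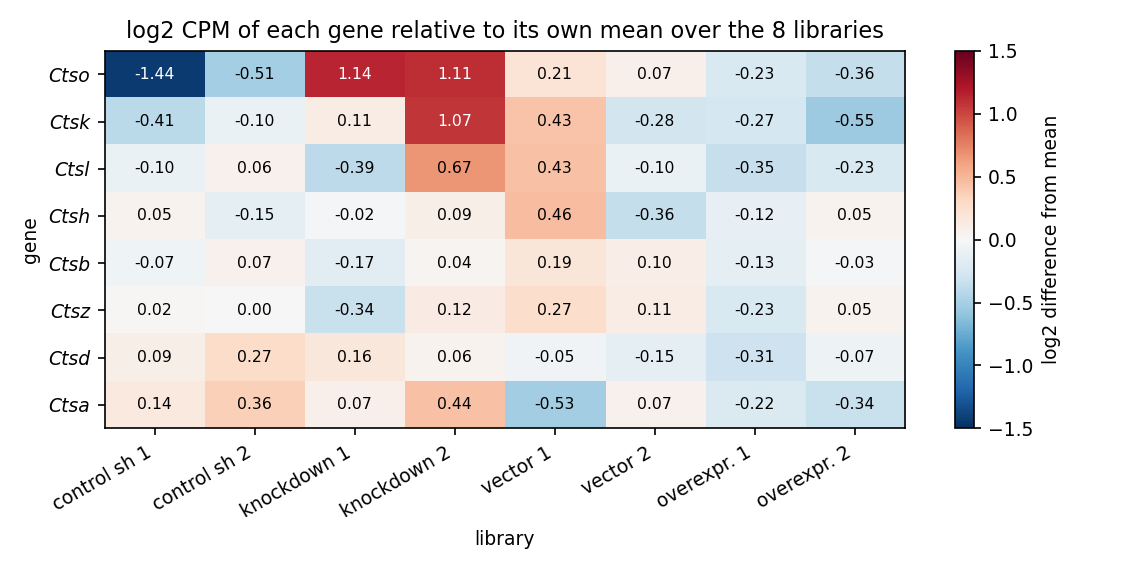
Log2 CPM of the 8 tested cathepsin genes in each library, as the difference from the gene's own mean over the 8 libraries (red above, blue below). Ctso is red in both knockdown libraries (1.14 and 1.11), Ctsk and Ctsl are reddest in knockdown library 2 (1.07 and 0.67), and the rows of Ctsb and Ctsz stay within -0.34 to 0.27.

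In the overexpression comparison 0 of the 8 tested cathepsins passed, and each 95% interval included 0. All 8 had a negative log2 ratio, from -0.52 to -0.08 with a median of -0.25, where the median over all 12115 genes was -0.01 and 50.5% were negative. Ctso, Ctsb, Ctsl and Ctsz had both overexpression libraries below both vector libraries, 4 of 8, and 0 had both above. Over all genes 23.1% were lower and 24.1% higher in this way. The 8 of 8 held under the other normalization, DESeq2, the FPKM fit and both replicate blocks, and became 7 of 8 without vector library 1, without vector library 2 or without overexpression library 1. The median was -0.16 without overexpression library 1 and -0.42 without vector library 2. In edgeR's quasi-likelihood test 0 of the 8 and 0% of all genes passed (at an unadjusted p under 0.05, 0 of the 8 and 7.62% of all genes), and DESeq2 called 0 of the 8 and 0.00825% of all genes. The summed cathepsin level was 2320 to 2530 CPM with overexpression and 2740 to 3020 CPM with the vector. Marker sums of other cell types also differed between these groups. With overexpression and with the vector respectively, they were 16.4 to 18.1 and 19.1 to 20.0 CPM for microglia and macrophages, 35.5 to 36.4 and 46.9 to 55.3 CPM for osteoclasts, and 1.44 to 1.99 and 2.01 to 4.55 CPM for neurons. Single genes weighed on these sums. Cd68 had a mean of 5.43 CPM with overexpression and 11.1 CPM with the vector. Of the 6 tested genes of the microglia list, however, 4 had a positive and 2 a negative log2 ratio (median 0.36). Elavl3 made up 3.32 CPM of the neuron sum of 4.55 CPM in vector library 1. Nfatc1 made up most of the osteoclast sum, and of that list's 2 tested genes 1 had a positive and 1 a negative log2 ratio. The sum of astrocyte markers was higher with overexpression, at 104 to 107 against 42.4 to 79.7 CPM. Of its 5 tested genes, 3 had a positive and 2 a negative log2 ratio (median 0.54), and Gfap had -0.64 (SE 0.59). The sums of fibroblasts and meninges (4400 to 4670 and 2910 to 4690 CPM) and of endothelium and pericytes (161 to 258 and 159 to 416 CPM) overlapped. Their part in the result was not tested.

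In the knockdown, Ctso and Ctsk had both libraries above both controls, 2 of 8, and 0 had both below, where 15.1% of all genes were higher and 14.1% lower in this way; nothing is read from this count, because the comparison chose Ctso. The median log2 ratio was 0.04, with 5 positive and 3 negative, and without knockdown library 2 it was -0.09. Ctsb, Ctsd, Ctsz, Ctsa and Ctsh lay between -0.10 and 0.08. Without knockdown library 2, Ctsz was -0.34, Ctsa -0.18 and Ctsb -0.17, and without knockdown library 1 they were 0.11, 0.17 and 0.04 in the same order. With the vector against the control shRNA, Ctso was higher without overlap, which is not read because its control shRNA values entered the selection. Of the 7 other members in this comparison, Ctsb and Ctsz were higher and Ctsd and Ctsa lower without overlap, against 24.6% and 26.5% of all genes. There edgeR called 0 of the 7 members other than Ctso and 0% of all genes (at an unadjusted p under 0.05, 0 of the 7 and 12.5% of all genes), and DESeq2 called 0 of them and 2.32% of all genes.

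**Figure D4:**
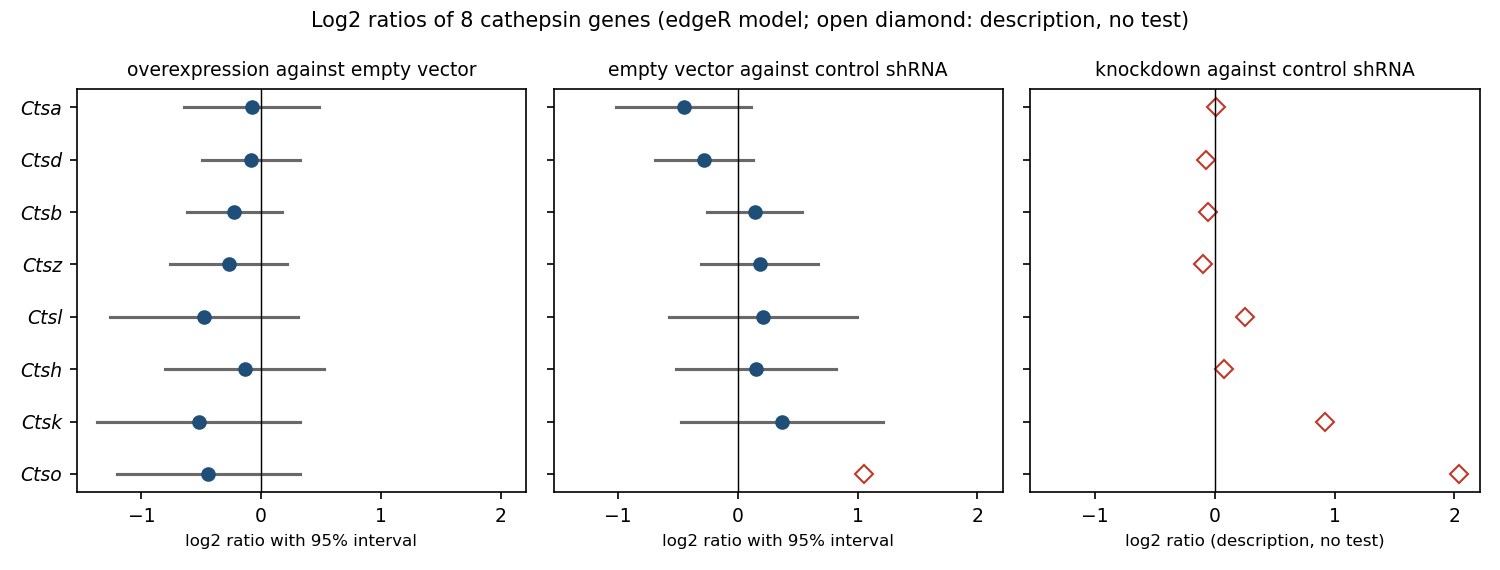
Log2 ratios of the 8 tested cathepsin genes in the 3 comparisons, with 95% intervals of the edgeR model before adjustment where a test was made; open diamonds mark the knockdown, and Ctso in the vector comparison, as untested. All 8 points of the overexpression panel lie left of 0 with intervals that cross it, and in the untested knockdown panel Ctso (2.04) and Ctsk (0.92) stand to the right.

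Genes that act on the cathepsins were listed beside them, and 0 of these genes passed the edgeR test in any comparison. Among inhibitors, the cystatins Cst3 and Cstb were abundant and near level: Cst3 had 187 ± 22.0, 213 ± 57.7, 194 ± 18.3 and 218 ± 14.3 CPM in the control shRNA, knockdown, vector and overexpression groups (SD, n = 2 each). The Cst3 overexpression log2 ratio was 0.17 (SE 0.23) and that of Cstb 0.08 (SE 0.28). Fetub, a liver protein of the cystatin superfamily, and Cst6 had the largest overexpression log2 ratios of the 6 tested inhibitors, -1.75 (SE 0.90) and 0.77 (SE 0.68). Fetub was highest where Ctsk and Ctsl were, at 252 CPM (knockdown library 2) and 135 CPM (vector library 1), against 21.3 to 69.6 CPM elsewhere. Ctla2b, an inhibitor homologous to a cathepsin propeptide, had 0.38 (SE 0.55).

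Of the genes that sort and process lysosomal enzymes, 14 were tested, and 2 had both overexpression libraries above and 4 both below the vector libraries (median log2 ratio -0.06), against 24.1% and 23.1% of all genes. Igf2r, the large mannose 6-phosphate receptor, had 353 ± 3.02 CPM with the vector and 235 ± 18.8 CPM with overexpression (SD, n = 2 each; log2 ratio -0.59, SE 0.20, edgeR adjusted p 0.598). The small receptor M6pr was the other way, at 163 ± 11.3 and 189 ± 2.01 CPM (log2 ratio 0.22, SE 0.16). Legumain, Lgmn, which processes cathepsins, had a log2 ratio of -0.20 (SE 0.23). Progranulin, Grn, which binds Ctsd, had 1019 and 943 CPM with the vector and 452 and 811 CPM with overexpression (log2 ratio -0.64, SE 0.39), and Cln6 had 0.51 (SE 0.43).

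The other lysosomal genes are given for comparison; no difference between the lists was tested. Of 30 further lysosomal hydrolases, 17 had a positive and 13 a negative overexpression log2 ratio (median 0.05), with 4 higher and 9 lower without overlap (24.1% and 23.1% of all genes). The alpha-glucosidase Gaa had 316 ± 0.481 CPM with the vector and 210 ± 17.9 CPM with overexpression (SD, n = 2 each; log2 ratio -0.59, SE 0.19), Idua -0.68 (SE 0.44) and Galc -0.60 (SE 0.31). Neu1 and Glb1, the partners of Ctsa, both had -0.13 (SE 0.27 and 0.19). Of 14 membrane proteins 11 were negative (median -0.15), among them the chloride transporter Clcn7 at -0.47 (SE 0.30) and the channel Mcoln1 at -0.40 (SE 0.24), while Cln3 had 0.60 (SE 0.38). Of 16 subunits of the vacuolar proton pump, which acidifies the lysosome, 10 were negative (median -0.03), with Atp6v1d at 0.45 (SE 0.17), Atp6v0a1 at -0.37 (SE 0.24) and Atp6v0b at -0.36 (SE 0.40).

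Among 12 tested regulators, 7 had both overexpression libraries below both vector libraries and 1 both above (median log2 ratio -0.23), against 23.1% and 24.1% of all genes. Tfeb and Tfe3, the activators that bind CACGTG, had 0.26 (SE 0.42) and -0.08 (SE 0.20). Tfeb had 16.2 and 14.9 CPM in the control shRNA libraries, 17.6 and 10.2 CPM in the knockdown, 10.6 and 5.31 CPM with the vector, and 7.78 and 11.2 CPM with overexpression. Flcn and Fnip2, which act together to keep Tfeb relatives inactive, had -0.62 (SE 0.47) and -0.45 (SE 0.22), and the coactivator Ppargc1a 0.72 (SE 0.38). Flcn was high where Ctsl was, at 202 CPM (knockdown library 2) and 176 CPM (vector library 1), against 70.3 to 118 CPM elsewhere.

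In the knockdown, these lists had median log2 ratios of -0.44 for the inhibitors, -0.15 for sorting and processing, 0.07 for hydrolases, 0.07 for membrane proteins, -0.06 for the proton pump and -0.19 for regulators, where all genes had 0.01. With the vector against the control shRNA, 25 of 30 hydrolases and 11 of 14 sorting genes had a negative log2 ratio (medians -0.20 and -0.25). Over all genes 50.3% were negative in that comparison (median -0.003). Ctsd and Ctsa were negative too, while the other 6 tested cathepsins were positive. Without vector library 1, Ctsh, Ctsk and Ctsl were negative as well.

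The genes most like Ctso over the 8 libraries, by Pearson r of log2 CPM, were Btbd16 (0.96), Ttc38 (0.94), Nenf (0.94), Tmco4 (0.92) and Dync2li1 (0.92). Each was higher in both knockdown than in both control shRNA libraries, by less than Ctso: Nenf had 16.8 and 20.1 CPM in the control and 26.9 and 32.6 CPM in the knockdown. That direction follows from the choice, since Ctso was selected on its knockdown values and these genes for likeness to it. Ctsk was the cathepsin most like Ctso, with an r of 0.72, and Ctsz the least, with -0.15. For Ctsl, the nearest genes, named after their values were seen, were Chmp2b, a subunit of the endosomal sorting complex (0.99), and Flcn (0.99). The points share their groups and libraries, and 8 points give many genes a high r.

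Overlapping genes limit some values. Ctsb shares 774 of its 6051 annotated exon bases (GENCODE M21) with Fdft1 on the other strand, Ctsa shares 495 of 4715 with Pltp and 324 with Neurl2, and Ctsz 10 of 1441 with Nelfcd. The partners had 18.5 to 125 CPM (Fdft1), 48.9 to 92.5 (Pltp), 2.59 to 5.39 (Neurl2) and 62.3 to 91.7 (Nelfcd), below the 303 to 1020 CPM of Ctsb and Ctsz and the 231 to 450 CPM of Ctsa. Whether counting used the strand is not given in the sources used here. Ctsd shares 808 of its 2351 exon bases with the gene model Gm49369 on its own strand. Ctsl shares 1742 of 6489 with the antisense gene Gm47123 and 395 with the pseudogene Gm49230 on its own strand. For these pairs reads cannot be told apart here. Ctso, Ctsk, Ctsh and Ctsf overlapped 0 other annotated genes.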

How the data were processed

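Per gene and library, the authors deposited unnormalized read counts and FPKM; per the submitters' processing notes the build was mm10 and the tools named were Trimmomatic, HISAT2, Cufflinks, HTSeq and DESeq, with roles, versions, annotation and strand setting not given in the sources used here. The deposited FPKM equalled the count divided by a whole-number length and the summed counts in 12615 of 12615 genes counted in all libraries (tolerance 0.01). The role written in a column's name gave its group, and 0 columns were left unused. Those names write AK and pcDNA where the labels write Ntoco and Lv or Vector, so the match rests on each column's role. Libraries of a group differed beyond counting noise (chi-square per gene 62.1 to 156).

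Genes passed edgeR's filterByExpr (minimum count 10), were scaled by TMM and tested by quasi-likelihood (edgeR) in a model of the 4 groups (biological coefficient of variation 28%), with Benjamini-Hochberg adjustment and a threshold of 0.05. SE is the log2 ratio divided by the square root of F, and intervals are 95% from the model's degrees of freedom. Log2 CPM used an offset of 0.125. The script was tested on simulated data. Alternatives were DESeq2's Wald test, RLE size factors, no filter, a block by column number, only the compared groups, each library left out, and limma on log2(FPKM + 0.1). The members, gene lists and motifs were chosen with earlier results of these data known. Named genes were the 10 members, fixed partners, the 3 genes per list with the largest overexpression log2 ratio, and the 5 nearest to Ctso; exceptions are stated. The tests ran in edgeR 4.0.16, DESeq2 1.42.0 and limma 3.58.1 under R 4.3.3, and figures in matplotlib 3.10.9 with pandas 2.3.3.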

Additional observations from a re-analysis of the deposited data

How the results depend on the processing

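With 2 libraries a group, counting error was small and the spread between libraries set the precision. Over all genes, the count called by edgeR was 0 in each comparison. DESeq2 called 1 gene in the overexpression, 15 in the knockdown and 281 in the vector comparison, and only the compared groups in the model gave 1, 0 and 128. Without the filter on low counts 3 genes were called in the vector comparison. Leaving out 1 library gave 0 to 25 in the overexpression comparison (25 without overexpression library 2), 0 to 1 in the knockdown and 0 in the vector comparison. The column numbers were not stated to pair the libraries, and the differences between library 1 and 2 had correlations over genes of -0.22, 0.36 and -0.12 in the overexpression, knockdown and vector comparisons. A replicate block by number called 0 genes in each, and with the vector numbers crossed, a choice made after seeing the data, 0 in the overexpression and 1 in the vector comparison; the block changed no call of a cathepsin. In the overexpression comparison, leaving out 1 library gave -0.34 to 0.25 for Ctsa (positive without vector library 2), -0.21 to 0.030 for Ctsd (positive without overexpression library 1) and -0.49 to 0.33 for Ctsh (positive without vector library 1). In the vector comparison it gave -0.32 to 0.50 for Ctsh, -0.029 to 0.68 for Ctsk and -0.082 to 0.45 for Ctsl, all negative without vector library 1. The cause was not tested. Adjusted p over all alternatives was 0.455 to 0.998 for cathepsins in the overexpression and, leaving Ctso out, 0.305 to 0.992 in the vector comparison.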
